A study of Mus musculus with 10 samples.

Results

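The proteasome genes were examined in liver RNA from 10 female mice, with 1 array per animal, 5 of genotype APOE3 and 5 of genotype APOE4. They were found by a symbol pattern, as genes whose name starts with Psma to Psmg followed by a digit and that have a probe set annotated with exactly 1 gene symbol. The pattern found 49 genes of the 18193 that the array names in this way. Of these, 47 are proteasome subunits, activators, the inhibitor or assembly chaperones. The other 2 are no part of the particle: Psmc3ip, a meiotic recombination factor, and Psme3ip1, a protein that binds an activator. Each gene is described by its probe set with the highest mean over all 10 arrays. A gene was tested when that mean reached 4 on the log2 scale, and 44 of the 47 did. The lowest tested of them was Psme3 at 7.16 and the highest untested one was Psmg4 at 3.31, so the limit fell in a wide gap.

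APOE3 mice were homozygous for a targeted replacement of mouse Apoe by human APOE3 (B6.129P2-Apoetm2(APOE*3)Mae N8), and APOE4 mice for the same replacement by human APOE4 (B6.129P2-Apoetm3(APOE*4)Mae N8). Apolipoprotein E is a lipid carrier of circulating lipoproteins, and APOE3 and APOE4 are its common human isoforms. In both groups the human protein was driven by the mouse Apoe promoter, neither had mouse apolipoprotein E, and no mouse with the mouse gene was included. All animals were C57BL/6, 3 months old, and were fed a high-fat diet (41% of energy from milk fat, 2 g/kg cholesterol). Its stated length is 6 weeks in the series design and 2 months in the growth protocol. The stated age at purchase was 6 to 8 weeks. The comparison asks whether hepatic transcripts of the protein degradation machinery differ between the isoforms. Values are log2 GCRMA intensities, so a difference of 1 is a doubling and all 44 tested proteasome genes lie well above the array medians. These medians lay between 2.62 and 2.67, the correlation between any pair of arrays over the tested probe sets was at least 0.970, and 12 of 14732 tested probe sets passed an adjusted p of 0.05 in limma. Hepatocyte markers were high in every liver, with a log2 summed level of 16.98 to 17.19, and all 10 that the array names were tested.

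The proteasome degrades proteins tagged with ubiquitin and supplies peptides for display on MHC class I molecules. Its core particle is a barrel of outer alpha rings (Psma genes) and inner beta rings (Psmb genes). The catalytic sites lie on the products of Psmb5, Psmb6 and Psmb7, or, in cells exposed to interferon and in immune cells, on their replacements from Psmb8, Psmb9 and Psmb10, which form the immunoproteasome. The regulatory particle caps the barrel with ATPases (Psmc genes) that unfold substrates and with scaffold and ubiquitin-handling subunits (Psmd genes). Transcription of core and regulatory subunits is known to respond to NFE2L1, which binds antioxidant response elements, and that of the immunoproteasome subunits to interferon, in part through IRF1.

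Upstream sequences are shown for Psmb5, for its replacement Psmb8 and for Psmb9, because the constitutive and replacement catalytic genes are set side by side in the results. They come from RefSeq (build GRCm38.p6), are written 5' to 3' on the strand of the gene, and end at the base before the transcription start. Psmb5 is at chr14:54617996-54618245 on the minus strand, Psmb8 at chr17:34197945-34198194 on the plus strand and Psmb9 at chr17:34187331-34187555 on the minus strand. Psmb5 and Psmb8 have 250 bases and Psmb9 has 225, since its farthest 25 bases lie inside Tap1. Capitals mark a match to a motif named after the sequences, which of these stretches only that of Psmb5 holds.
Psmb5: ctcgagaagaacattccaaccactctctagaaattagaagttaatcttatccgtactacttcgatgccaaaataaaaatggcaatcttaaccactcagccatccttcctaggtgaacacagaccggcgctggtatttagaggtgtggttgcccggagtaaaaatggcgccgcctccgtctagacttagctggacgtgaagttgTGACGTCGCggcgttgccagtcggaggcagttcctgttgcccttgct
Psmb8: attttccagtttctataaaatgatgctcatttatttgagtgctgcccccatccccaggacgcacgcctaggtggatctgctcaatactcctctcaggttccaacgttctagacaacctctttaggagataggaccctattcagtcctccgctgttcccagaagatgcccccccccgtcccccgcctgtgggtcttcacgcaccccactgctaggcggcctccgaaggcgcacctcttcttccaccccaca
Psmb9: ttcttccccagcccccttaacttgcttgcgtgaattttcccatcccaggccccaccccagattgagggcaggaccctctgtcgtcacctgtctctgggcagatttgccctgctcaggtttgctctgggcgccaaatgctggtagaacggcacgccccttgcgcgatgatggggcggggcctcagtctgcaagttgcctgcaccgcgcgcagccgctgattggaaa

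Windows of 300 bases, from 250 before to 50 after the start, were searched on both strands for 2 motifs, and 37 of the 44 tested genes had such a window. The antioxidant response element core, TGACNNNGC, was found in 6 of 37, namely Psmb5, Psmb6, Psmc6, Psmd9, Psmd12 and Psme4, against 13.99% of 27025 genes with a window. In Psmb5 the match is TGACGTCGC and begins at position -47 from the start, and in Psmb6 it is TGACGGAGC at -9. The interferon-stimulated response element core, written GAAA, any 2 bases, GAAA, was found in 4 of 37 (Psmb3, Psmd4, Psmd9 and Psme1), against 3.99% of all genes. The windows of Psmb8, Psmb9 and Psmb10 held neither. No match overlapped another. A match describes letters, not a bound site.

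No proteasome gene differed between the genotypes by limma. Of the 44 tested, 0 passed an adjusted p of 0.05, where 0.0820% of all tested genes did with 1 probe set per gene, and the smallest adjusted p among them was 0.58. An unadjusted p under 0.05 was reached by 1 of 44, against 7.16% of all 8535 tested genes. The median difference of the 44 genes, APOE4 minus APOE3, was 0.04 log2, and that of all tested genes was 0.04. There were 28 positive and 16 negative differences, and 59.6% of all 8535 tested genes were positive. That share also stands beside the counts of signs by role and by list below. The counts became 18 and 26 after each array was centred on its median and 22 and 22 after renewed quantile normalization. The balance of signs thus changed with the scaling. It also changed when 1 animal was left out, to 24 and 20 without APOE4 replicate 5 and 32 and 12 without APOE4 replicate 4. The share of positive genes over all tested genes is not given for these runs, and the cause was not tested. With the 1 chosen probe set per gene, the 95% interval of the fold difference lay inside 1.5-fold in either direction for 43 of the 44 genes, all but the activator gene Psme1. Of all 70 tested probe sets of these genes it did so for 62, and 7 of the 8 others were further probe sets, of Psma1, Psma3, Psmb1, Psmc6, Psmd9, Psmd11 and Psme3. Among the chosen probe sets Psmb9 (down to 0.667-fold) and Psmd5 (up to 1.49-fold) only just met the bound. How many of all tested genes meet it was not counted, so the count cannot be called particular to the proteasome. The plot of genotype differences shows each gene with its interval.

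**Figure D1:**
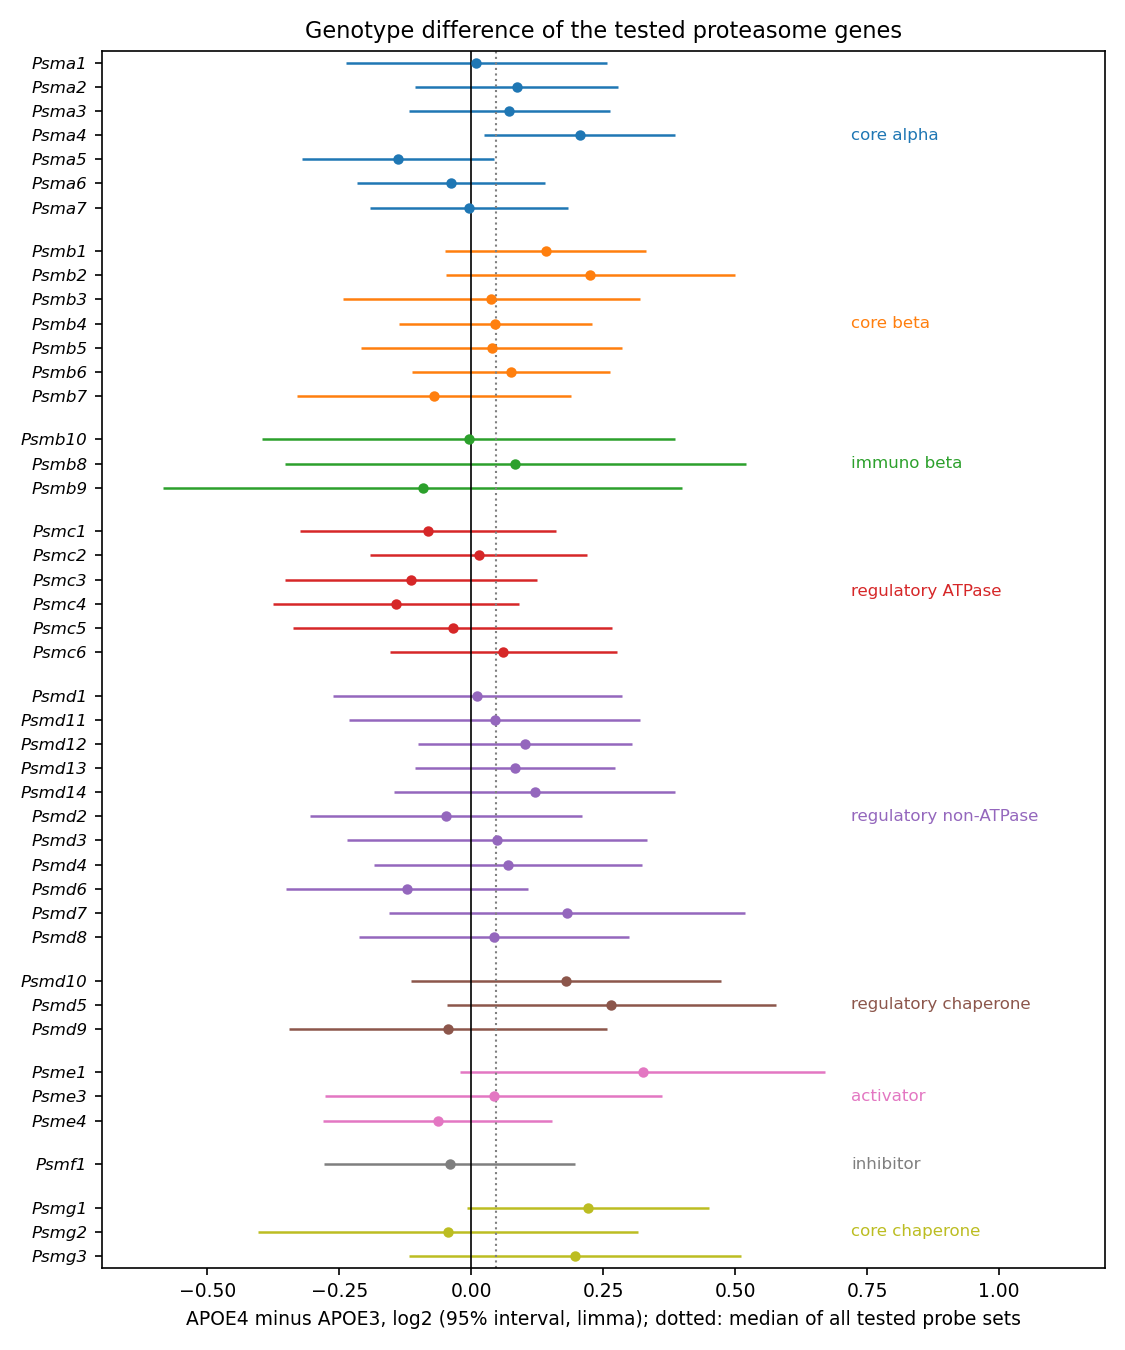
Difference between APOE4 and APOE3 livers (log2, x axis) for the 44 tested proteasome genes, grouped by role and coloured by group, with points for the limma estimate and bars for its 95% interval (5 animals per genotype). The solid line is 0 and the dotted line the median of all tested probe sets, 0.05. The estimates lie between -0.14 (Psmc4) and 0.32 (Psme1), and the interval of Psma4 alone leaves 0 out.

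In the alpha ring, which forms the gated outer rings of the core, 4 of 7 tested genes were positive and 3 negative, with a median difference of 0.01. Psma4 read 11.05, 10.88, 10.998, 10.94 and 10.81 in APOE3 replicates 1 to 5 and 11.12, 11.23, 11.07, 11.11 and 11.19 in APOE4. Its genotypes did not overlap, the lowest APOE4 liver lying just above the highest APOE3 liver. The means were 10.94 ± 0.09 and 11.14 ± 0.06 (SD, n = 5 each). It was the 1 tested proteasome gene of which this held, against 1.75% of all tested genes, and after renewed quantile normalization it held for 0. The difference was 0.21 (SE 0.082), with an adjusted p of 0.58 in limma. Psma5 was the most negative of the ring at -0.14 (SE 0.083). The other 5, Psma1, Psma2, Psma3, Psma6 and Psma7, lay between -0.04 and 0.09. Psma8, the testis form of an alpha subunit, stayed between 2.42 and 3.35 on all arrays and was not tested.

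The constitutive beta ring showed the same small differences, with 6 of 7 genes positive and a median of 0.05. Psmb5 encodes the chymotrypsin-like site. It read 10.28, 9.79, 10.15, 10.14 and 10.31 in APOE3 and 10.16, 10.21, 10.08, 10.08 and 10.33 in APOE4. One liver, APOE3 replicate 2, was below the rest, the genotypes overlapped, and the difference was 0.04 (SE 0.11). Its sign turned when arrays were centred (-0.02) and without APOE3 replicate 2 (-0.05). Psmb6, the caspase-like site, read 11.31, 11.13, 11.23, 11.24 and 11.16 in APOE3 and 11.21, 11.41, 11.19, 11.25 and 11.40 in APOE4. These ranges overlapped, and the difference was 0.08 (SE 0.085). Psmb7, the trypsin-like site, read 11.21, 10.67, 11.09, 11.03 and 10.90 in APOE3 and 10.95, 11.09, 10.89, 10.69 and 10.92 in APOE4, again overlapping. Its difference was -0.07 (SE 0.12), and the livers that were lowest were APOE3 replicate 2 and APOE4 replicate 4.

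Among the structural beta genes, Psmb2 had the smallest p of the ring. It read 8.15, 7.66, 8.21, 7.86 and 8.27 in APOE3 and 8.32, 8.22, 8.28, 8.13 and 8.33 in APOE4. Its APOE4 livers were close together. APOE3 replicates 2 and 4 lay below all of them and the other APOE3 livers inside their range. The difference was 0.23 (SE 0.12; adjusted p = 0.68 in limma). Psmb1 was at 0.14 (SE 0.087), and Psmb3 and Psmb4 at 0.04 (SE 0.13) and 0.05 (SE 0.083). Psmb11, the thymus-specific catalytic subunit, stayed between 2.15 and 2.60 on all arrays and was not tested.

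The immunoproteasome genes varied widely between animals, and none passed the test between genotypes. Psmb8, the replacement of Psmb5, read 8.56, 8.96, 8.16, 9.06 and 8.67 in APOE3 and 9.34, 8.74, 8.49, 8.55 and 8.71 in APOE4. APOE4 replicate 1 was the highest liver and APOE3 replicate 3 the lowest. Psmb9, the replacement of Psmb6, read 8.45, 8.80, 7.84, 8.33 and 8.60 in APOE3 and 9.04, 8.30, 8.08, 8.17 and 7.96 in APOE4, with the same livers at the ends. Psmb10, the replacement of Psmb7, read 8.59, 9.15, 8.16, 8.57 and 8.74 in APOE3 and 9.01, 8.61, 8.42, 8.43 and 8.71 in APOE4. Here APOE3 replicate 2 was highest, just above APOE4 replicate 1. The differences were 0.08 (SE 0.20), -0.09 (SE 0.22) and -0.01 (SE 0.18), with adjusted p-values of 0.93, 0.94 and 0.996 in limma, and each changed sign when 1 animal or another was left out. The 95% intervals were 0.783 to 1.43-fold for Psmb8, 0.667 to 1.32-fold for Psmb9 and 0.760 to 1.31-fold for Psmb10. The plot of the catalytic subunits shows the overlap of the genotypes in all 6 genes. In whole liver, a change in the number of immune cells and a change in RNA per cell cannot be told apart.

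**Figure D2:**
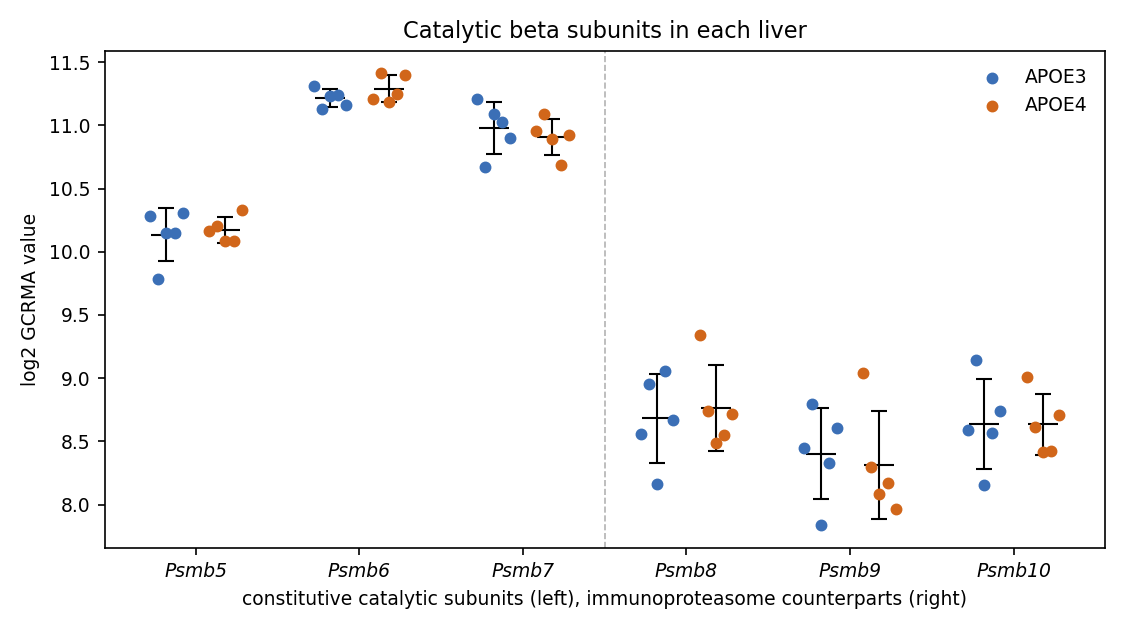
Log2 GCRMA value (y axis) of the catalytic beta subunit genes in each of the 10 livers, with blue points for APOE3 and orange points for APOE4, in the order of the replicate numbers, and black bars for the mean and SD of 5 animals. The genotypes overlap in all 6 genes, and the SD of the immunoproteasome genes on the right reaches 0.43 (Psmb9 in APOE4), against at most 0.21 for those on the left.

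The ATPases of the regulatory particle, Psmc1 to Psmc6, were 2 positive and 4 negative, with a median of -0.06. Psmc4 had the most negative difference of all 44 genes. It read 11.43, 11.15, 11.54, 11.39 and 11.57 in APOE3 and 11.33, 11.22, 11.32, 11.08 and 11.41 in APOE4, overlapping over most of the range. The difference was -0.14 (SE 0.11; adjusted p = 0.75 in limma), and its second tested probe set gave 0.04. Psmc3 was at -0.11, Psmc1 at -0.08, Psmc5 at -0.04, Psmc2 at 0.01 and Psmc6 at 0.06. Psmc6 depended on the probe set: the remaining ones, at lower levels, gave -0.23 (SE 0.14) and -0.46 (SE 0.21; adjusted p = 0.63 in limma).

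Of the 11 non-ATPase subunits, 9 were positive and 2 negative, with a median of 0.05. Psmd4 encodes a ubiquitin receptor. It read 10.57, 10.43, 10.80, 10.93 and 10.62 in APOE3 and 10.77, 10.70, 10.64, 10.61 and 10.97 in APOE4. The ranges overlapped, with APOE3 replicates 1 and 2 below every APOE4 liver, and the difference was 0.07 (SE 0.12). Psmd7, the partner of the deubiquitinase from Psmd14, read 8.38, 7.95, 8.58, 8.49 and 8.66 in APOE3 and 8.93, 8.51, 8.61, 8.30 and 8.62 in APOE4. The lowest liver was APOE3 replicate 2 and the highest APOE4 replicate 1, with overlap between, and the difference was 0.18 (SE 0.15; adjusted p = 0.78 in limma). Psmd14, the deubiquitinase, was at 0.12, Psmd12 at 0.10 and Psmd13 at 0.08. The large scaffold genes Psmd1 and Psmd2 were at 0.01 and -0.05, and Psmd3, Psmd8 and Psmd11 each lay between 0.04 and 0.05. Psmd6 was at -0.12 by its higher probe set and 0.13 by the lower one.

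Assembly chaperones, which hold subunits during construction and leave the finished particle, were 4 positive and 2 negative. Psmd5 guides ATPase assembly. It read 8.28, 7.62, 7.75, 7.52 and 7.90 in APOE3 and 8.18, 8.11, 8.22, 7.96 and 7.93 in APOE4. All but APOE3 replicate 1 of the APOE3 livers lay below all APOE4 livers, and the difference was 0.27 (SE 0.14; adjusted p = 0.67 in limma). Psmg1, which starts alpha ring assembly with Psmg2, read 9.31, 8.85, 9.11, 8.99 and 9.25 in APOE3 and 9.23, 9.33, 9.42, 9.26 and 9.38 in APOE4. The genotypes overlapped only through APOE3 replicates 1 and 5, and the difference was 0.22 (SE 0.10; adjusted p = 0.63 in limma). Psmg3 was at 0.20, Psmd10 at 0.18, and Psmd9 and Psmg2 both at -0.04. Psmg4 stayed between 2.95 and 3.65 on all arrays and was not tested.

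Activators open the core without the ATPases. Psme1, a subunit of the interferon-inducible activator, had the most positive difference of the 44 genes. It read 10.16, 9.64, 9.34, 9.58 and 9.72 in APOE3 and 10.31, 10.18, 9.84, 9.82 and 9.90 in APOE4. All but APOE3 replicate 1 of the APOE3 livers lay below all APOE4 livers. The means were 9.69 ± 0.30 and 10.01 ± 0.22 (SD, n = 5 each). The difference was 0.32 (SE 0.16), a 1.25-fold estimate with a 95% interval from 0.985 to 1.59-fold, and the adjusted p was 0.64 in limma. It ranged from 0.24 to 0.44 as each animal was left out, with adjusted p-values of 0.31 to 0.79 in limma. Its partner Psme2 shares its only probe set with Psme2b and is therefore not reported. Psme3, the nuclear activator, was at 0.04 (SE 0.15) by its higher probe set and 0.35 (SE 0.12; adjusted p = 0.58 in limma) by the other, and Psme4 was at -0.06. Psmf1, the proteasome inhibitor, was at -0.04 (SE 0.11).

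Several probe sets were tested for 20 of the 44 genes, and in 9 of them the signs differed between probe sets. Over all 70 tested probe sets of the 44 genes, 3 reached an unadjusted p under 0.05, for Psma4, Psme3 and a low probe set of Psmd11 (4.13 in APOE3, 4.66 in APOE4), against 8.00% of all tested probe sets. None passed the adjusted threshold, where 0.0815% of all probe sets did.

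Within a genotype most core and regulatory subunits varied less than the median tested gene, and those of 1 ring or subunit class tended to deviate together. The SD within genotype was below the median of all tested genes, 0.222 log2, for 30 of the 31 tested core and regulatory subunits, with a median of 0.155. Among the 3770 tested genes at or above the lowest level of these subunits the median was 0.185. That set is not matched to the subunits in level, since their means ran from 7.88 to 12.40. The part of level in their small SD was not tested. The SD was 0.0908 at the median in the alpha ring, 0.164 in the constitutive beta ring, 0.151 in the ATPases and 0.175 in the non-ATPases. The 3 immunoproteasome genes were at 0.305 (Psmb10), 0.346 (Psmb8) and 0.396 (Psmb9). For each pair of genes the Pearson correlation of the deviations from the genotype means was taken over the 10 livers. Its median was 0.45 within the alpha ring (21 pairs), 0.59 within the constitutive beta ring (21 pairs), 0.58 among the ATPases (15 pairs), 0.56 among the non-ATPases (55 pairs) and 0.82 among the immunoproteasome genes (3 pairs). Over the whole core particle it was lower, 0.32 (91 pairs, from -0.62 to 0.85), and over the whole regulatory particle 0.56 (136 pairs, from -0.60 to 0.94). Over all pairs of tested genes it was 0.01, and 0.01 over the 3770 genes at or above the lowest level of the subunits. Without APOE3 replicate 4 the alpha ring's median was 0.18, and without APOE3 replicate 2 that of the non-ATPases was 0.34. These medians are descriptions without a test, since pairs share genes and livers.

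**Figure D3:**
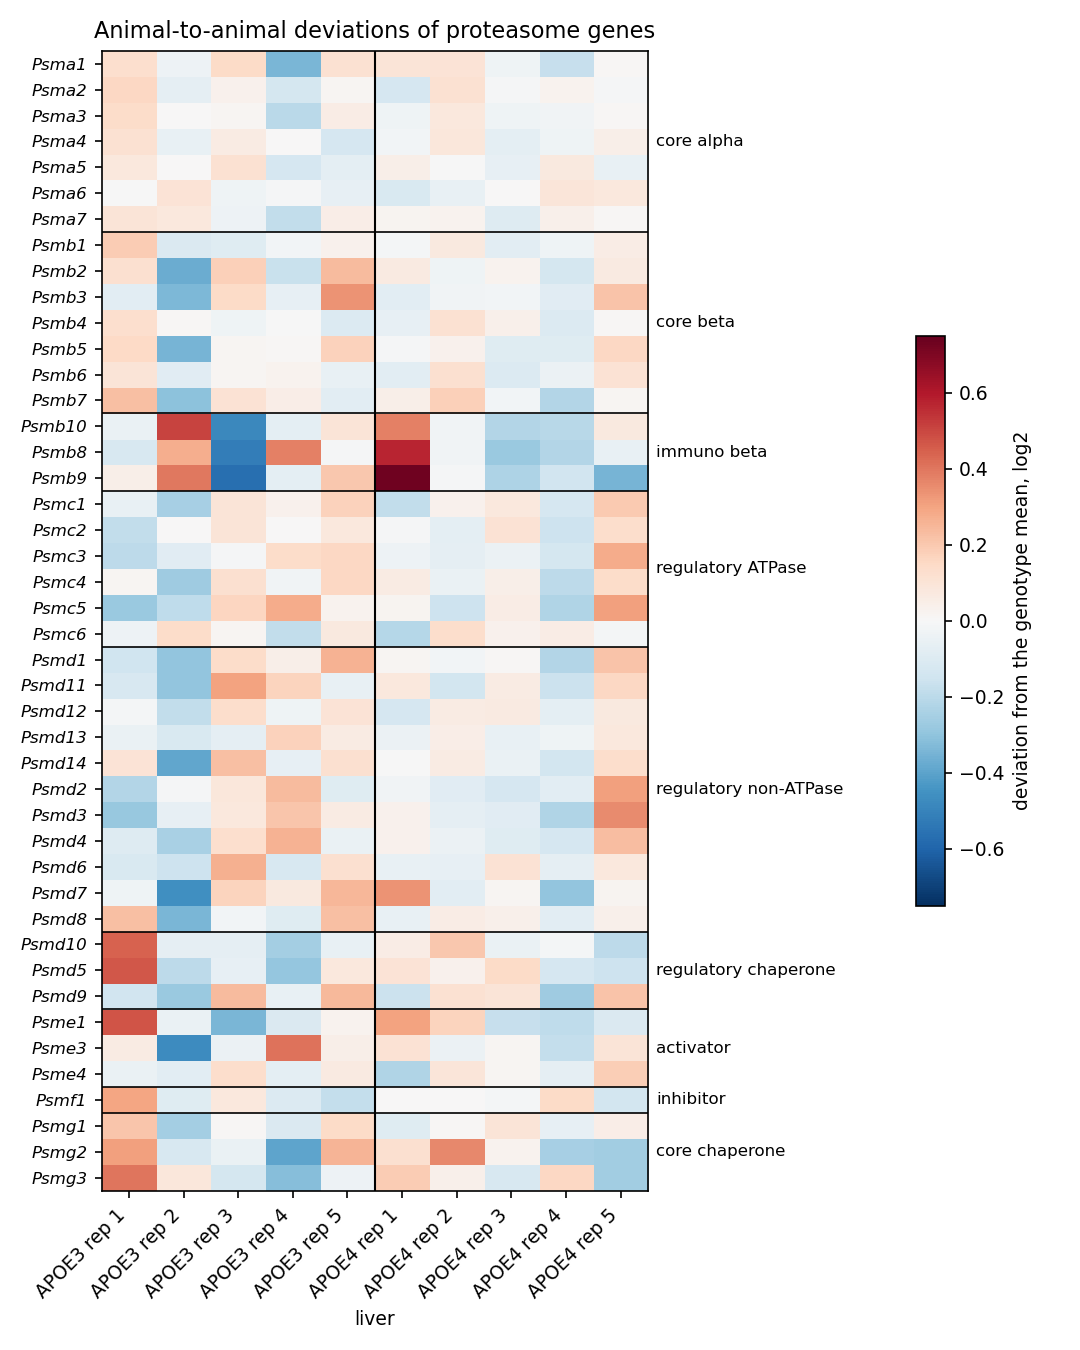
Deviation of each of the 44 tested genes from its genotype mean (log2, colour scale) in each of the 10 livers (columns; rep, replicate), with genes in rows grouped by role. APOE3 replicate 2 and APOE4 replicate 4 are mostly blue and APOE4 replicate 5 mostly red in the regulatory rows, where 15, 16 and 1 of 17 genes are below the genotype mean, while the immunoproteasome rows are red in APOE3 replicate 2 and APOE4 replicate 1.

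The core and the regulatory particle did not follow a single course across the livers. Between a core and a regulatory gene the median correlation was 0.08 over 238 pairs, with values from -0.82 to 0.92. In APOE3 replicate 1, 12 of 14 core genes lay above the genotype mean and 14 of 17 regulatory genes below it. In APOE3 replicate 2, 15 of 17 regulatory and 9 of 14 core genes lay below. In APOE4 replicate 5, 16 of 17 regulatory and 12 of 14 core genes lay above, and in APOE4 replicate 4, 16 of 17 and 10 of 14 lay below. The median deviation of the regulatory genes was lowest in APOE3 replicate 2, at -0.19, and highest in APOE4 replicate 5, at 0.14. Assembly chaperones were high in APOE3 replicate 1 (5 of 6 above the mean, median deviation 0.36) and low in APOE3 replicate 4 (6 of 6 below, -0.27). Among single genes the strongest follower of the other core and regulatory subunits was the scaffold gene Psmd1, with a median correlation of 0.62. Psma6, Psma7, Psmc6, Psma5 and Psmb4 were the core and regulatory subunits with negative medians, at -0.20, -0.14, -0.12, -0.074 and -0.0087. The immunoproteasome genes Psmb9, Psmb10 and Psmb8 were at -0.27, -0.25 and -0.20.

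The immunoproteasome genes varied together, apart from the constitutive catalytic genes. Over the log2 values of the 10 livers, 24 relations were computed, added after values had been seen. Their permutation p-values were adjusted by Benjamini-Hochberg over these 24 only, which does not cover that choice. Psmb9 and Psmb10 had r = 0.85 (p = 0.0019, adjusted p = 0.023) and rho = 0.77 (p = 0.013, adjusted p = 0.14). Psmb8 and Psmb10 had r = 0.80 (p = 0.0065, adjusted p = 0.040) and rho = 0.75 (p = 0.018, adjusted p = 0.14), and Psmb8 and Psmb9 r = 0.79 (p = 0.0070, adjusted p = 0.040) and rho = 0.70 (p = 0.031, adjusted p = 0.19). Without the 2 livers farthest from the median on the first gene, r was 0.66, 0.57 and 0.43, so the relation of Psmb8 with Psmb9 rests largely on APOE3 replicate 3 and APOE4 replicate 1, whose values are given above. Each replacement and its constitutive counterpart had r = -0.18 (Psmb5 and Psmb8, permutation p = 0.60), -0.43 (Psmb6 and Psmb9, permutation p = 0.21) and -0.38 (Psmb7 and Psmb10, permutation p = 0.28), with rho of 0.05, -0.43 and -0.30 (permutation p = 0.89, 0.22 and 0.41). Adjusted p-values of these were 0.66, 0.37 and 0.40 for r and 0.93, 0.33 and 0.54 for rho, and r without 2 livers was 0.05, -0.34 and -0.07. Among the constitutive genes r was 0.58 (Psmb5 and Psmb6), 0.64 (Psmb5 and Psmb7) and 0.50 (Psmb6 and Psmb7), with permutation p = 0.083, 0.046 and 0.14 and adjusted p = 0.20, 0.16 and 0.28. Their rho was 0.44, 0.52 and 0.55 (permutation p = 0.20, 0.14 and 0.10, adjusted p = 0.33, 0.30 and 0.30), and r without 2 livers 0.15, 0.53 and 0.66.

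Irf1, the interferon-induced transcription factor gene, varied with Psmb8. Of the class I presentation and interferon control genes listed below, it alone was among the 24 relations. It read 7.44, 8.33, 7.24, 8.30 and 7.62 in APOE3 and 8.34, 7.66, 7.62, 7.72 and 8.23 in APOE4, with its lowest value in APOE3 replicate 3, as for the 3 immunoproteasome genes. With Psmb8 it had r = 0.87 (permutation p = 0.00043, adjusted p = 0.010) and rho = 0.87 (p = 0.0020, adjusted p = 0.048), and r = 0.83 without APOE3 replicate 2 and APOE4 replicate 1. With Psmb10 it had r = 0.75 (permutation p = 0.011, adjusted p = 0.043) and rho = 0.67 (p = 0.039, adjusted p = 0.19), and with Psmb9 r = 0.51 (p = 0.13, adjusted p = 0.28) and rho = 0.55 (p = 0.10, adjusted p = 0.30). Without the same livers r was 0.54 for Psmb10 and 0.04 for Psmb9.

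Leukocyte markers varied with Psmb8. Of 19 leukocyte and lymphocyte markers 17 were on the array by name, 5 were tested, and 10, among them Cd3e, Cd8a, Cd4, Cd79a, Nkg7 and Ncr1, were under 4 in every liver. The log2 summed level of the 17 was 10.01 to 11.41 in APOE3 and 9.75 to 11.16 in APOE4, highest in APOE3 replicate 4 and APOE4 replicate 1. Levels were summed before the log, so Laptm5, the highest of the 17 at a mean of 9.42, weighs most in it. In those 2 livers Laptm5 read 10.59 and 10.22. The sum is therefore mainly a level of general leukocyte genes, not of lymphocyte markers. With this level Psmb8 had r = 0.77 (permutation p = 0.0083, adjusted p = 0.040) and rho = 0.54 (p = 0.11, adjusted p = 0.30), and r = 0.40 without those 2 livers, on which the relation rests. Psmb9 had r = 0.60 (permutation p = 0.069, adjusted p = 0.19) and Psmb10 r = 0.43 (permutation p = 0.22, adjusted p = 0.37), with rho of 0.62 and 0.26 (permutation p = 0.061 and 0.47, adjusted p = 0.24 and 0.59). Without the same 2 livers r was 0.68 for Psmb9 and 0.55 for Psmb10. Kupffer cell and macrophage markers (14 of 15 on the array, all 14 tested) had a log2 summed level of 13.18 to 14.28 in APOE3 and 12.99 to 13.91 in APOE4. The same 2 livers were highest, so the 2 marker levels are not separate readings. The relations below are with the Kupffer cell and macrophage level. Here r was 0.59, 0.41 and 0.19 for Psmb8, Psmb9 and Psmb10 (permutation p = 0.073, 0.24 and 0.59, adjusted p = 0.19, 0.38 and 0.66), with rho of 0.42, 0.47 and 0.05 (permutation p = 0.23, 0.18 and 0.89, adjusted p = 0.33, 0.33 and 0.93). Without APOE3 replicate 4 and APOE4 replicate 1 these r were -0.02, 0.32 and 0.08. For Psmb5, Psmb6 and Psmb7 the 6 relations with the marker levels had r from -0.38 to -0.08 and rho from -0.52 to -0.01. The adjusted permutation p-values were at least 0.396 for r and 0.297 for rho. Without those 2 livers their r was from -0.75 to -0.47. The part of these cells in the immunoproteasome values was not tested.

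**Figure D4:**
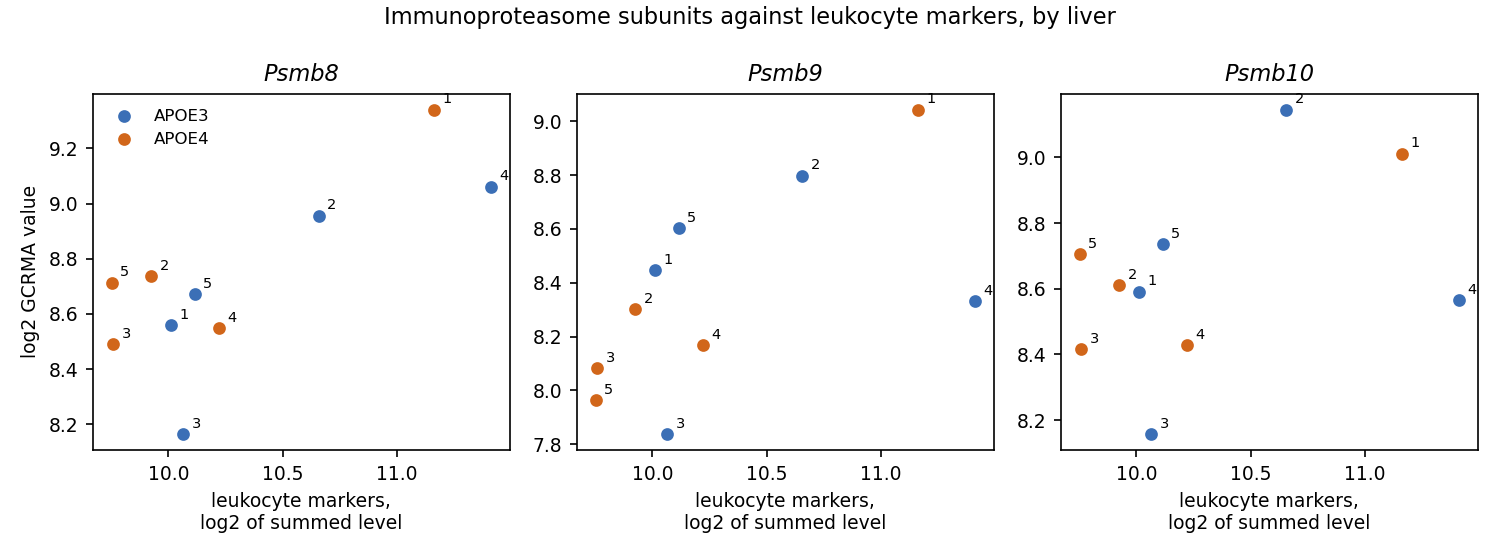
Log2 GCRMA value of Psmb8, Psmb9 and Psmb10 (y axes, panel by panel) against the log2 summed level of the leukocyte and lymphocyte markers (x axis) in the 10 livers, with blue points for APOE3, orange points for APOE4 and replicate numbers beside them. Psmb8 is highest in the livers with the most marker signal, APOE4 replicate 1 and APOE3 replicate 4, while APOE3 replicate 4 lies in the middle of the range for Psmb9 (8.33) and Psmb10 (8.57).

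Other genes of the pathway did not differ by genotype either. Of 11 listed proteasome genes outside the symbol pattern, 7 were tested and 0 passed in limma (1 at an unadjusted p under 0.05), 3 being positive and 4 negative. Akirin2, which brings proteasomes into the nucleus, had the smallest p, at 0.26 (SE 0.095; adjusted p = 0.58 in limma), followed by the proteasome-associated thioredoxin gene Txnl1 at -0.15 (SE 0.084). Pomp, the core maturation factor, was at -0.03 (SE 0.087). Of 10 genes around NFE2L1, 7 were tested and 0 passed in limma (0 unadjusted), with 5 positive. For the shuttle factor gene Rad23b the difference was 0.24 (SE 0.11; adjusted p = 0.63 in limma). For Nfe2l1 itself it was 0.37 (SE 0.23; adjusted p = 0.71 in limma), with values of 6.67 to 8.00 in APOE3 and 7.44 to 8.18 in APOE4 that overlapped. Of 21 genes of ubiquitin supply and activation, 15 were tested and 0 passed in limma (1 unadjusted), with 10 positive and 5 negative, and the shuttle gene Ubqln2 at -0.31 (SE 0.14) and the conjugating enzyme gene Ube2k at 0.24 (SE 0.14).

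In MHC class I presentation, 14 of 15 listed genes were tested and 0 passed in limma (1 unadjusted), with 8 positive and 6 negative and a median of 0.02. Tap1, the peptide transporter gene that lies between Psmb9 and Psmb8 in the RefSeq gene order of chromosome 17, was near background at 3.76 to 4.60 and differed by -0.24 (SE 0.13). B2m, the light chain of class I molecules, was at 0.04 (SE 0.091). The smallest p-values belonged to Pdia3, a disulfide isomerase of the loading complex, at 0.32 (SE 0.14) and to Nlrc5, the class I transactivator gene, at -0.40 (SE 0.20), with adjusted p-values of 0.62 and 0.64 in limma. Of the marker lists, hepatocyte markers were 5 positive and 5 negative, with Cyp2e1 at -0.13 and Hnf4a at -0.22. The 5 tested leukocyte markers were all negative and included Coro1a at -0.52 (SE 0.50) and Ptprc at -0.41 (SE 0.42). Kupffer cell and macrophage markers were 2 positive and 12 negative, with Cd163 at 0.87 (SE 0.41) and Marco at -1.90 (SE 1.19). In both genes APOE3 replicate 4 stood apart, with Cd163 at 6.37 (others 8.22 to 9.36) and Marco at 9.99. Marco read 6.62 in APOE3 replicate 2 and 2.66 to 4.73, near background, in the remaining livers. APOE3 replicate 4 was the highest APOE3 liver for every gene of the Kupffer cell and macrophage list but Cd163. Its log2 summed level was 14.28, against 13.18 to 13.57 in the other APOE3 livers. The signs of this list without that liver are not given. Of the 3 lists 0 members passed in limma, adjusted or not.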

How the data were processed

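Total liver RNA (2 ug per labelling) was hybridised to 1 one-colour array per animal. Per the submitters' processing notes, the authors used R 2.7.1 and GCRMA 2.12.1 to make the deposited log2 values, a method that models background from probe sequence, equalizes arrays by quantiles and summarizes each probe set. Any genome build or probe filter is not given in the sources used here. This method presses undetected transcripts to a narrow floor, so differences near it have no sure scale.

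Genotypes came from sample titles. All 45101 probe sets were read, 64 controls left out, and the 14732 with a mean of at least 4 over the 10 arrays fitted with limma 3.58.1 in R 4.3.3 (no covariate, eBayes without trend, two-sided, Benjamini-Hochberg over all of them). Gene names came from the platform annotation, which gave 34945 probe sets 1 symbol. The members, lists and named genes were chosen with earlier results of these data known. Psme3ip1 was set apart from the subunits after values had been seen. Values on every array are given for the member with the smallest p in each role with over 1 tested gene, the catalytic subunits, Psme1, Psmd4 and the largest rise and fall. The correlations were added after values had been seen and used 100000 permutations. The limma and permutation steps were tested on simulated data. No batch was named in the labels, so none was tested. The number of arrays limits the precision (median SE 0.142 log2). Figures used Python 3.11.15 and matplotlib 3.10.9.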

Additional observations from a re-analysis of the deposited data

Results flagged for a closer look

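In groups of 5 livers, a value was marked when its gap to the nearest of the others exceeded 0.71 of the range of the group. Of 88 groups (44 genes in each genotype), 5 were marked, where chance marks about 1 in 20. The count is thus near the chance rate, and the values below are listed as descriptions only. The share marked over all tested genes is not given, and the groups share livers and are not independent. In APOE4 replicate 5, 3 genes stood above the other APOE4 livers. The beta subunit gene Psmb3 was at 10.85 (others 10.56 to 10.62), the ATPase gene Psmc3 at 9.999 (others 9.59 to 9.68) and the scaffold gene Psmd2 at 10.20 (others 9.76 to 9.86). In APOE4 replicate 3, the alpha subunit gene Psma7 was low at 10.45 (others 10.55 to 10.59). In APOE3 replicate 1, the assembly chaperone gene Psmd10 was high at 8.62 (others 7.92 to 8.12).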

How the results depend on the processing

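No proteasome gene passed under any alternative run (smallest adjusted p per setting from 0.30 to 0.79 in limma): no filter, a mean of at least 6, values under 4 set to 4, both rescalings, a robust eBayes with trend, weighted arrays, the replicate block, 1 probe set per gene, the mean of all tested probe sets of a gene and leaving out each animal. Over all probe sets, the 12 calls became 5 with the filter at 6 and 7 with 1 probe set per gene, both fits of fewer probe sets, and 8 to 14 without 1 animal. The replicate block gave 11. Pairing by number was not established, and the labels state none. Of the same-numbered pairs of deviations, 3 of 5 correlated over 0.1 (0.0019, 0.19, 0.41, -0.079 and 0.29). Among the 5 arrays of the other genotype, 1 bears the same number, and it was the best correlated for 4 of 10 arrays. These values do not settle whether the arrays were paired. Psma4's separation of the genotypes was lost with renewed quantile normalization (0 genes separated, an alternative added after seeing the data), and the cause was not tested. The sign of Psmb5 turned with arrays centred (-0.018). Without 1 animal, differences ranged from -0.049 to 0.082 for Psmb5, -0.060 to 0.18 for Psmb8, -0.27 to 0.0067 for Psmb9 and -0.13 to 0.12 for Psmb10. The median of the regulatory genes ranged from -0.03 to 0.06. The median correlation between livers of all gene pairs moved to -0.00047 with arrays centred. Without 1 animal it stayed at 0.18 to 0.52 in the alpha ring (lowest without APOE3 replicate 4), 0.34 to 0.62 in the non-ATPases (lowest without APOE3 replicate 2), 0.47 or more in the constitutive beta ring and the ATPases and 0.73 or more in the immunoproteasome, and renewed quantile normalization gave 0.31 in the alpha ring.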
